A study of Gallus gallus with 2 samples.

Results

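Cullin-RING ubiquitin ligases and their SOCS-box, F-box and Kelch substrate receptors were followed in a single chick embryo overexpressing SOCS2, with each wing sequenced separately (1 embryo, 2 libraries). The genes were taken by symbol: the cullins (CUL), the RING subunits RBX1 and RNF7, the elongins (ELOB, ELOC or TCEB), and the receptor families ASB, WSB, SPSB, FBXL, FBXO, FBXW and KLHL, wherever the mean of both wings was at least 1 TPM (a length-corrected level of each transcript, scaled to an equal total in each library). This gave 98 genes among the 13946 compared between the wings, from 113 symbols of these families in the table. The SOCS genes themselves were not included. No sequence of these genes was analysed here.

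RCAS-GFP-SOCS2, a replication-competent avian retrovirus carrying GFP with SOCS2, was injected on the right side, and the uninjected left wing of this embryo served as control. RNA came from each whole wing, labelled forelimb bud, 5 days after infection at Hamburger-Hamilton stage 34. Each group held 1 library, so there was no replicate check and no p-value, and the depth behind a TPM value was unknown. Injection, virus, GFP, SOCS2 and the right side of the body differed together between the wings and cannot be told apart.

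A cullin-RING ligase is built on a cullin, a long scaffold protein. At one end a RING subunit recruits the enzyme that carries ubiquitin, and at the other an adaptor holds an exchangeable receptor that picks the substrate. CUL1 uses the adaptor SKP1 and F-box receptors, CUL3 binds BTB-Kelch receptors directly, CUL4A and CUL4B use DDB1, and CUL2 and CUL5 use the elongin B and C pair. The SOCS box, named after the suppressors of cytokine signalling, is the short C-terminal domain by which a receptor binds elongin C and CUL5. SOCS2 is such a receptor, known in mammals to direct the growth hormone receptor to CUL5.

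None of the 98 genes differed by more than 1.5-fold between the wings (0 higher and 0 lower), the size used here to call a difference. Over all 13946 genes compared, 2.23% were called higher and 4.79% lower, 7.02% in all. The log2 ratios of injected over uninjected, computed on TPM + 0.1, ran from −0.50 for FBXO40 to 0.46 for KLHL35. Their median was −0.06, beside −0.04 for all genes, and 38 of the 98 lay above 0, or 38.8%, against 40.3% of all genes. Under 3 other scalings of the libraries, 44, 44 and 48 of the 98 lay above 0. These scalings also moved the median of all genes, to between −2.1e-05 and 0.005. The 40.3% therefore does not apply to those 3 counts. The 5th and 95th percentiles were −0.33 and 0.22 for the ligase genes, and −0.57 and 0.40 for all genes. Summed over the 98 genes, the level was 3587 TPM uninjected and 3531 TPM injected.

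Abundance has to be read beside that count, since low values vary more. Of the ligase genes, 58 had a mean of 20 to 100 TPM, where 2.04% of all genes were called, 25 had 5 to 20 TPM (7.04% called), 9 had 1 to 5 TPM (23.2% called) and 6 had 100 TPM or more (1.87% called). With a smaller size of 1.2-fold, chosen after the data were examined, 13 ligase genes (13.3%) were beyond it, 5 higher and 8 lower, while 25.7% of all genes were, 8.83% higher and 16.8% lower. The 5 were KLHL35, RBX1, FBXO4, KLHL23 and KLHL21, and the 8 were FBXO40, FBXO8, SPSB3, KLHL42, ASB8, KLHL3, ASB5 and FBXO28. From the highest bin of abundance to the lowest, 1 of 6, 5 of 58, 4 of 25 and 3 of 9 ligase genes were beyond 1.2-fold, where 13.2%, 13.6%, 31.3% and 56.7% of all genes were. In the bin of 20 to 100 TPM the median size of the log2 ratio, regardless of sign, was 0.10 for the ligase genes and 0.11 for all genes. In the same order it was 0.13 and 0.10 at 100 TPM or more, 0.11 and 0.17 at 5 to 20 TPM, and 0.24 and 0.31 at 1 to 5 TPM. The Pearson correlation of log2 TPM between the wings was 0.993 across the 98 genes and 0.986 across all genes, where genes are not independent replicates.

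**Figure D1:**
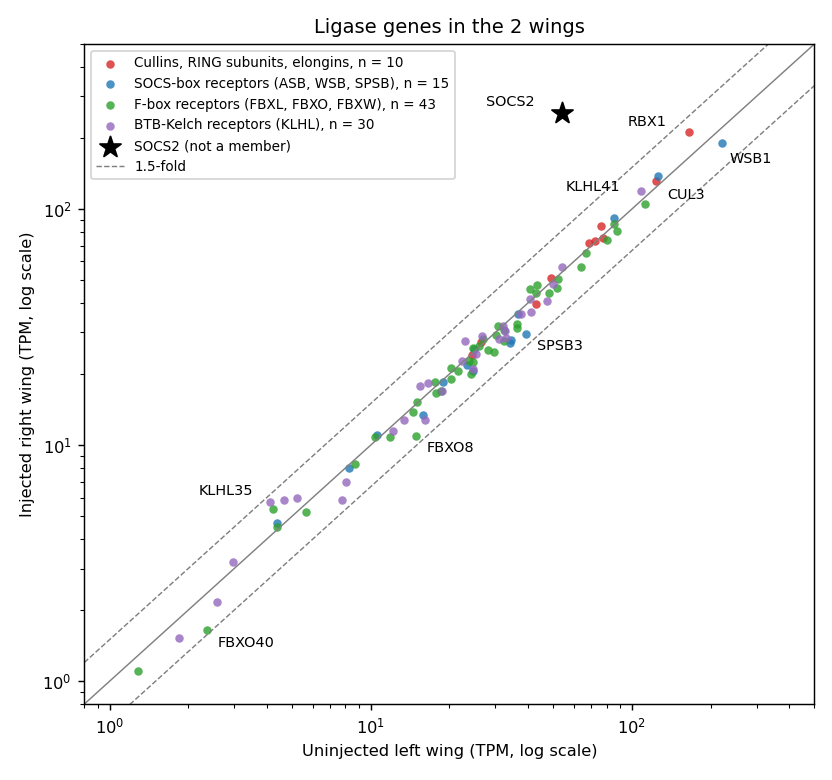
TPM of each ligase gene in the uninjected left wing (x axis, log scale) and the injected right wing (y axis, log scale), with 1 point per gene and 1 library per wing, coloured by the part the protein plays in the ligase. All 98 points lie between the dashed 1.5-fold lines, while SOCS2, shown as a star and not one of the 98, lies above them at 54.2 and 254 TPM.

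The scaffolds came first. CUL3, the scaffold of BTB-Kelch ligases, was the most abundant cullin at 124 TPM uninjected and 131 TPM injected. CUL1, the scaffold of the F-box ligases, was at 77.7 and 75.2 TPM, and CUL4B at 72.3 and 73.4 TPM. CUL5, on which SOCS2 acts, was at 49.0 TPM uninjected and 51.0 TPM injected, a log2 ratio of 0.06. CUL2, the scaffold of the VHL ligase, was at 42.9 and 39.7 TPM (log2 ratio −0.11), and CUL4A, the paralogue of CUL4B, at 24.4 and 24.0 TPM. The order CUL3, CUL1, CUL4B, CUL5, CUL2, CUL4A was the same in both wings. CUL1 and CUL4B were close, at 75.2 and 73.4 TPM in the injected wing, and 1 library per wing cannot show how firm the order is. The log2 ratios of the 6 cullins ran from −0.11 to 0.08, and their summed level was 390 TPM uninjected and 394 TPM injected. No entry of the table carried the symbol CUL7 or CUL9, so these were not analysed here.

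The RING subunits had larger log2 ratios than any of the scaffolds. RBX1, which serves CUL1 to CUL4B, was at 166 TPM uninjected and 212 TPM injected, a 1.28-fold ratio (0.36 on the log2 scale). This lay within 1.5-fold, and 83.0% of all genes compared had a smaller log2 ratio in size. Among all genes of 100 TPM or more, the level of RBX1, the median size was 0.10 and 13.2% were beyond 1.2-fold. RNF7, also known as RBX2 or SAG and the usual partner of CUL5, was at 76.2 and 84.4 TPM (log2 ratio 0.15). Set against the summed level of CUL1, CUL2, CUL3, CUL4A and CUL4B, RBX1 transcripts came to 0.486 per cullin transcript in the uninjected and 0.619 in the injected wing. RNF7 came to 1.56 and 1.65 per CUL5 transcript.

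Among the elongins, ELOC, the adaptor that grips the SOCS box, was at 68.6 TPM uninjected and 72.1 TPM injected (log2 ratio 0.07). TCEB3, the older symbol of elongin A, which promotes elongation by RNA polymerase II and carries a SOCS-box-like motif of its own, was at 26.3 and 27.4 TPM (0.06). No entry of the table carried the symbol ELOB, so elongin B, the partner of ELOC, was not analysed here. Of the 10 cullin, RING and elongin genes, 7 had a log2 ratio above 0, against 40.3% of all genes compared, with a median of 0.06. Under other scalings of the libraries, 8 or 9 were above 0, as CUL4A and then CUL1 changed sign. The same scalings moved the median of all genes from −0.04 to between −2.1e-05 and 0.005. The 40.3% therefore does not apply to the counts of 8 or 9.

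SOCS2 joins these subunits as a receptor, and its own level was the large difference around them. SOCS2 was at 54.2 TPM uninjected and 254 TPM injected, and the table does not separate vector transcripts from those of the embryo. Per ELOC transcript there were 0.789 SOCS2 transcripts in the uninjected and 3.53 in the injected wing. Per CUL5 transcript there were 1.11 and 4.99, and per RNF7 transcript 0.711 and 3.02. These are ratios of RNA levels and say nothing about the amount of protein. RNA was taken from whole wings, so fewer cells of a type and less RNA per cell cannot be told apart in any of these values.

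**Figure D2:**
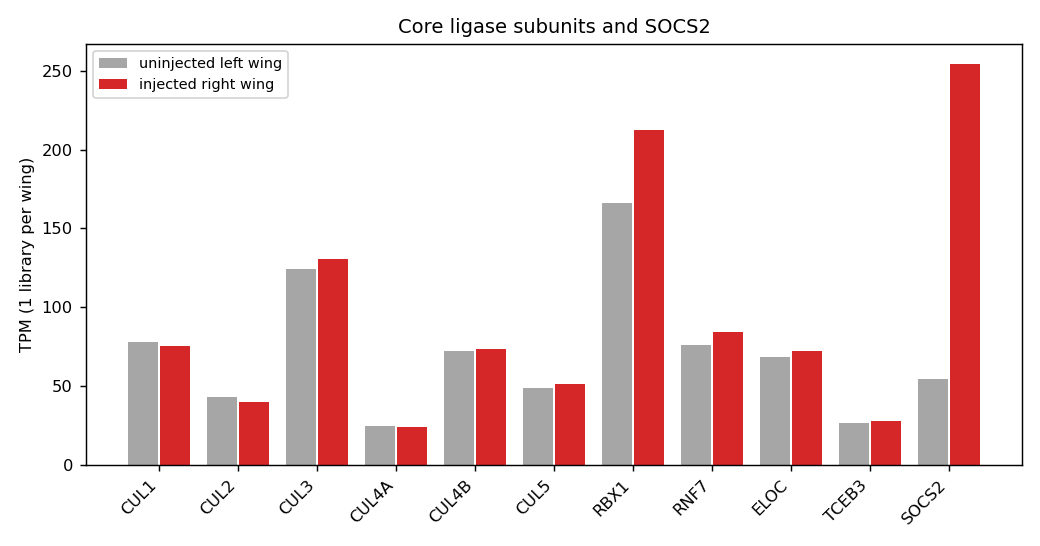
TPM (y axis, from 0) of the 6 cullins, the RING subunits RBX1 and RNF7, the elongins ELOC and TCEB3, and SOCS2 for comparison, in the uninjected (grey) and injected (red) wing, 1 library each and so without error bars. SOCS2 went from 54.2 to 254 TPM, while ELOC and CUL5 were at 68.6 and 72.1 TPM and at 49.0 and 51.0 TPM.

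The other SOCS-box receptors were led by the WSB pair, which join WD40 repeats to a SOCS box. WSB1 was first described in chick as a gene induced by Sonic hedgehog, and in mammals it directs the thyroid hormone enzyme deiodinase type 2 to degradation. It was the most abundant of the 98 genes in the uninjected wing, at 222 TPM, and was at 190 TPM in the injected wing, behind RBX1 (log2 ratio −0.22). WSB2, its paralogue, was at 126 TPM uninjected and 138 TPM injected (0.13). The paralogues thus differed in sign, with WSB1 at 1.76 times the level of WSB2 in the uninjected and 1.38 times in the injected wing. Of all genes compared, 68.2% had a smaller log2 ratio in size than WSB1 and 47.6% than WSB2. With 1 library per wing, how firm this contrast is cannot be shown. WSB1 was 4.10 times as abundant as SOCS2 in the uninjected wing and 0.748 times as abundant in the injected wing.

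The ASB family joins ankyrin repeats to a SOCS box, and 10 of its 17 symbols in the table were members. ASB1 was the most abundant at 85.5 TPM uninjected and 91.5 TPM injected (log2 ratio 0.10). ASB5, found in striated muscle and muscle precursors, was at 34.5 and 27.8 TPM (−0.31), and ASB8 at 34.1 and 27.1 TPM (−0.33). ASB6, which in mammals binds the insulin receptor adaptor APS, was at 24.6 and 20.5 TPM (−0.26). ASB9, which targets creatine kinase, was at 24.8 and 25.5 TPM (0.04), ASB3 at 23.4 and 21.9 TPM, and ASB12 at 15.9 and 13.4 TPM (−0.24). ASB7 was at 10.6 and 11.0 TPM, ASB13 at 4.39 and 4.70 TPM, and ASB2, which targets filamins in muscle and blood cells, at 8.22 and 7.97 TPM (−0.05). ASB5, ASB6, ASB8 and ASB12 therefore lay between −0.33 and −0.24, and the other 6 between −0.10 and 0.10; the family median was −0.07.

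The SPSB proteins join a SPRY domain to a SOCS box. SPSB3, which targets the transcription factor SNAIL in human cells, was at 39.5 TPM uninjected and 29.7 TPM injected, a log2 ratio of −0.41 and the third lowest among the 98 genes. SPSB1 and SPSB4, which target inducible nitric oxide synthase in mammals, were at 36.6 and 36.1 TPM and at 19.0 and 18.6 TPM, with log2 ratios of −0.02 and −0.03. The summed level of the 15 ASB, WSB and SPSB genes was 709 TPM uninjected and 664 TPM injected, and SOCS2 came to 0.0763 and 0.383 of that sum.

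**Figure D3:**
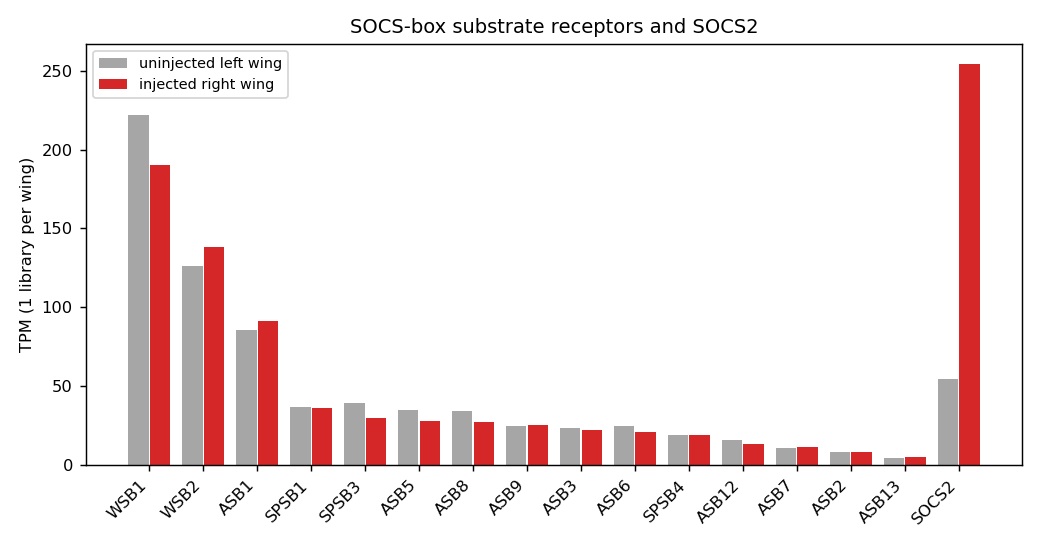
TPM (y axis, from 0) of the 15 SOCS-box receptors of the ASB, WSB and SPSB families, ordered by mean level, and of SOCS2, in the uninjected (grey) and injected (red) wing, 1 library each. WSB1 led the uninjected wing at 222 TPM, and in the injected wing SOCS2 at 254 TPM was above WSB1 at 190 TPM.

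The F-box receptors, which as a class, though not in every case, load onto CUL1 through SKP1, made up 43 of the 98 genes. Of their log2 ratios, 14 lay above 0 (32.6%, against 40.3% of all genes compared) and 29 below. Under the other scalings their log2 ratios shifted upward by 0.04 to 0.05, as did the median of all genes compared. The 5 FBXW genes, whose WD40 repeats recognise phosphorylated substrates, lay between −0.06 and 0.07. FBXW11, a beta-TrCP protein that targets beta-catenin, was at 67.0 TPM uninjected and 65.3 TPM injected, and FBXW5 at 52.2 and 50.8 TPM. FBXW7, which targets cyclin E, MYC and Notch, was at 26.8 and 28.2 TPM (0.07). FBXW2 was at 30.6 and 32.1 TPM, and FBXW8, known in mammals to target the insulin receptor substrate IRS1, at 23.7 and 22.7 TPM (−0.06).

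The 13 FBXL genes, with leucine-rich repeats, had a median log2 ratio of −0.11 and a range from −0.25 to 0.17. FBXL7 was the most abundant at 63.8 TPM uninjected and 56.6 TPM injected (−0.17), followed by mean level by FBXL5, the iron sensor that controls the iron regulatory proteins, at 48.0 and 43.9 TPM (−0.13). FBXL22, a sarcomere-linked F-box protein, was at 40.8 and 46.0 TPM (0.17), the highest ratio of this family. FBXL2 had the lowest, at 29.5 and 24.8 TPM (−0.25). FBXL15, which targets SMURF1, a ligase of BMP signalling, was at 14.6 and 13.8 TPM (−0.08).

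The 25 FBXO genes had a median log2 ratio of −0.09. FBXO45, which works with the large ligase MYCBP2 at synapses, was the most abundant at 112 TPM uninjected and 105 TPM injected, and FBXO11, which targets BCL6, was at 87.6 and 80.6 TPM. FBXO3, above FBXO11 in the injected wing alone, was at 85.1 and 86.0 TPM and FBXO9 at 80.3 and 74.0 TPM. FBXO5, or EMI1, the inhibitor of the anaphase-promoting complex and so a gene of cycling cells, was at 28.2 and 25.3 TPM (−0.16). FBXO7, linked to mitophagy, was at 43.3 and 47.6 TPM (0.13).

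The FBXO genes with the largest ratios in either direction were FBXO40, FBXO8, FBXO28 and FBXO4, with 1.64 to 24.2 TPM. FBXO40, a muscle protein that directs IRS1 to degradation in mouse muscle after IGF1 stimulation, was at 2.36 TPM uninjected and 1.64 TPM injected. Its log2 ratio of −0.50 was the lowest of the 98 and was −0.35 with a pseudocount of 1 TPM. FBXO8, which carries a Sec7 domain, was at 14.9 and 10.9 TPM (−0.45), and FBXO28 at 24.2 and 20.1 TPM (−0.27). At the other end, FBXO4 was at 4.23 and 5.36 TPM (0.33). Of all genes compared, 90.3% had a smaller log2 ratio in size than FBXO40 and 81.4% than FBXO4. Both genes had a mean of 1 to 5 TPM, where ratios are wider. The median size for all genes at that level was 0.31, close to the 0.33 of FBXO4.

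The KLHL receptors, which join a BTB domain to Kelch repeats and bind CUL3, numbered 30, with a median log2 ratio of −0.06. Of their ratios, 12 lay above 0, or 40%, against 40.3% of all genes compared. KLHL41, a muscle protein mutated in nemaline myopathy, was the most abundant at 109 TPM uninjected and 119 TPM injected (0.13). KLHL5 was next at 53.9 and 57.1 TPM (0.08). KLHL12, which monoubiquitinates SEC31 in the export of collagen, was at 32.7 and 30.5 TPM (−0.10). KLHL2 and KLHL3, paralogues that target WNK kinases, were at 37.5 and 35.8 TPM (−0.07) and at 16.1 and 12.7 TPM (−0.33).

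KLHL35 had the highest log2 ratio of the 98, 0.46, at 4.13 TPM uninjected and 5.72 TPM injected. Its mean was in the range of 1 to 5 TPM, where the median size for all genes was 0.31 and 23.2% were beyond 1.5-fold. KLHL23 followed in the family at 4.64 and 5.83 TPM (0.32), and KLHL21, which with KLHL9 targets Aurora B in dividing cells, at 23.0 and 27.7 TPM (0.27). KLHL9 itself was at 49.8 and 48.3 TPM (−0.04). KLHL42, which targets the microtubule-severing katanin, was lowest at 7.74 and 5.87 TPM (−0.39). KLHL24, which acts on keratin 14 in human skin, was at 33.0 and 28.3 TPM (−0.22). Beside it, the 8 epidermal genes measured here had a median log2 ratio of −0.30, with summed levels of 409 TPM uninjected and 339 TPM injected; their part in the KLHL24 value was not tested.

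**Figure D4:**
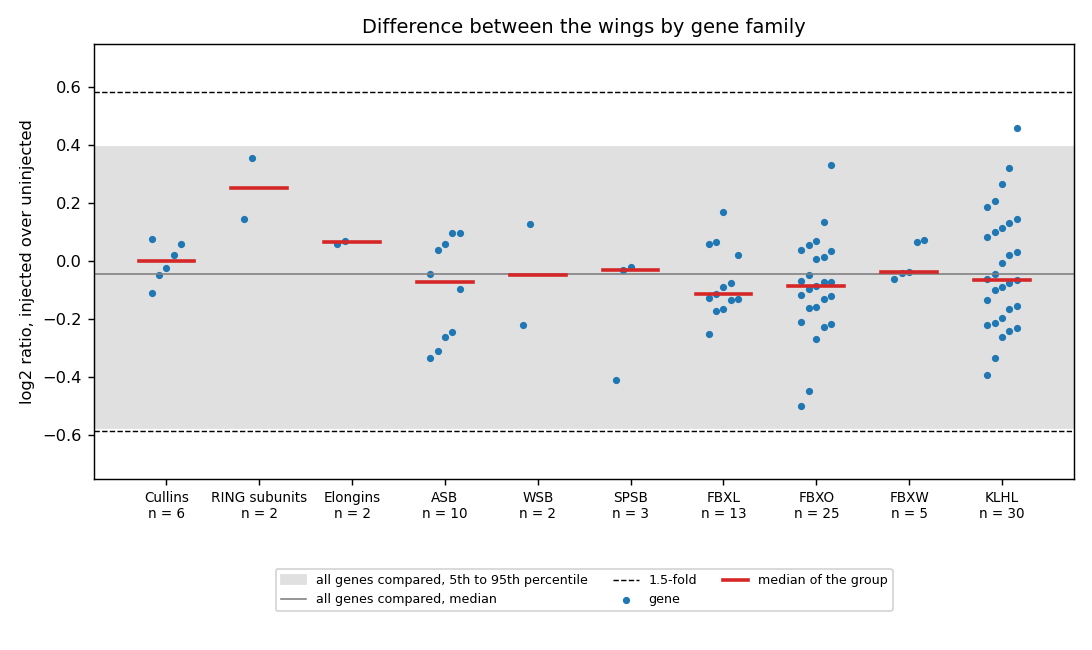
Log2 ratio of injected over uninjected (y axis) for each of the 98 ligase genes by family (x axis, with n), the red bar marking the family median, the grey band the 5th to 95th percentile of all genes compared and the dashed lines 1.5-fold. All points lie between the dashed lines, and RBX1 (0.36) and KLHL35 (0.46) are the highest of the RING and KLHL columns.

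Receptors known from muscle spanned both signs. Beside KLHL41, KLHL40, also mutated in nemaline myopathy, was at 26.8 TPM uninjected and 29.0 TPM injected (0.11), and KLHL31 was at 22.3 and 22.6 TPM (0.02). FBXO32, or atrogin-1, the ligase of muscle atrophy, was at 8.72 and 8.29 TPM (−0.07). With ASB2, ASB5, FBXL22 and FBXO40 these made 8 muscle-linked members, a grouping written after their values were seen, with 4 log2 ratios above 0 and 4 below and a median of −0.01. The grouping listed 10 genes, of which 2 were left out by the 1 TPM rule. The 14 muscle markers measured, among them MYOD1 and the myosin gene MYLPF, had a median of 0.21 and summed levels of 6440 TPM uninjected and 7608 TPM injected. Their part in the values of these 8 genes was not tested.

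The 15 symbols left out by the 1 TPM rule included 7 ASB genes. ASB4, ASB11 and FBXO47 were listed at 0 in both wings, and ASB10, ASB16 and FBXO43 in the uninjected wing alone. A value of 0 can be a failed estimate in a table without counts. KLHL34, at 0.830 TPM uninjected and 0.851 TPM injected, lay just outside the rule, and FBXO15, at 1.29 and 1.10 TPM, just inside it. In the RefSeq gene order of assembly GRCg7b, used for neighbours alone, ASB11 lies next to ASB9, which was at 24.8 and 25.5 TPM, and KLHL38, at 0.585 and 0.324 TPM, lies next to FBXO32. The neighbours KLHL10 and KLHL11 were also far apart in level, KLHL10 at 2.57 and 2.16 TPM and KLHL11 at 47.2 and 40.6 TPM.

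Other genes that run these ligases were taken from 7 lists of 128 symbols, of which 109 were found in the table and 106 had a mean of at least 1 TPM. None of the 106 passed 1.5-fold as reported (0 higher and 0 lower, against 7.02% of all genes compared), and their median log2 ratio was −0.05. The gene nearest to that size was NEDD8, the ubiquitin-like protein whose attachment to a cullin switches the ligase on. It was at 122 TPM uninjected and 182 TPM injected (log2 ratio 0.58, just under the limit). It passed 1.5-fold at 0.62, 0.62 and 0.63 under the 3 other scalings and at 0.59 once the drift of the ratio with abundance was subtracted. NEDD8 was then the 1 gene called of the 106, where 6.84% to 6.93% of all genes compared were called. As reported, 1.87% of all genes of 100 TPM or more, the level of NEDD8, were called. UBE2M, the enzyme that carries NEDD8 to CUL1 to CUL4B together with RBX1, was at 107 and 144 TPM (0.43), while UBE2F, its counterpart for CUL5 and RNF7, was at 69.5 and 69.1 TPM (−0.01).

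NAE1 and UBA3, the subunits of the NEDD8-activating enzyme, were at 55.6 and 51.4 TPM (−0.11) and at 94.3 and 86.7 TPM (−0.12). CAND1, the exchange factor that swaps receptors on CUL1, was at 104 and 106 TPM (0.03). The 13 genes of NEDD8 conjugation and CAND1 thus had a median of 0.03, with NEDD8 and UBE2M at the top. The 10 genes of the COP9 signalosome and NEDD8 removal had a median of 0.00; the catalytic subunit COPS5 was at 107 and 103 TPM (−0.05), the most abundant subunit COPS4 at 162 and 157 TPM (−0.05), and the small subunit COPS9 at 32.7 and 45.8 TPM (0.49). The NEDD8 protease SENP8 was at 18.7 and 23.6 TPM (0.33).

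Adaptors were abundant and close between the wings. SKP1 was at 469 TPM uninjected and 464 TPM injected (−0.02), and DDB1 at 126 and 133 TPM (0.07). Of the 12 adaptors and partner enzymes, 10 had a ratio above 0, against 40.3% of all genes compared. Their median was 0.07, with a range from −0.11 to 0.21. The 40.3% covers genes of every level, with a median of −0.04. This list had a median level of 109 TPM uninjected, and all genes of 100 TPM or more had a median of 0.0002. The 40.3% is therefore not matched to the list in abundance. Under the 3 other scalings the median of the list was 0.11 or 0.12, and that of all genes moved up too. The 16 other SOCS-box and VHL-box receptors had a median of −0.09, which was −0.05 under the 3 other scalings. As reported, 13 lay below 0, where 8324 of the 13946 genes compared did. FEM1A was the most abundant at 106 and 101 TPM. The 7 other F-box receptors had a median of −0.16; LMO7 was at 93.3 and 74.8 TPM (−0.32), SKP2, which targets the cell cycle inhibitor p27, at 56.6 and 50.3 TPM (−0.17), and BTRC, the paralogue of FBXW11, at 22.6 and 25.2 TPM (0.16). The 30 other BTB receptors, with KCTD2 highest by mean at 104 and 106 TPM, had a median of −0.06, and the 18 CUL4 receptors one of −0.06. WDR5, the highest of these by mean, was at 105 and 114 TPM, and DCAF13, the highest in the uninjected wing, at 112 and 106 TPM.

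**Figure D5:**
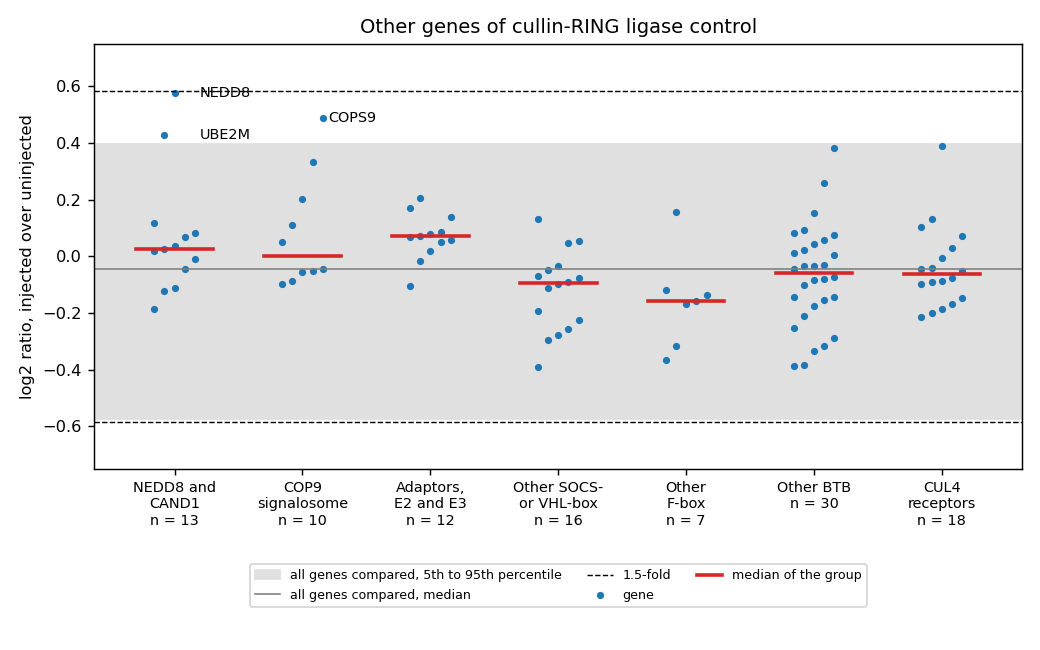
Log2 ratio of injected over uninjected (y axis) for 106 further genes of cullin-RING ligase control in 7 lists (x axis, with n), the red bar marking the list median, the grey band the 5th to 95th percentile of all genes compared and the dashed lines 1.5-fold. NEDD8 (0.58) lies at the dashed line, with COPS9 (0.49) and UBE2M (0.43) next, above the grey band.

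As a check of the tissue, the forelimb gene TBX5 was at 113 TPM uninjected and 137 TPM injected and the limb mesenchyme gene PRRX1 at 239 and 204 TPM, while the leg genes TBX4 and PITX1 were at 5.25 and 1.79 TPM and at 15.2 and 15.3 TPM. Other tissues contributed RNA to both wings. The median log2 ratio of their markers was 0.31 for 8 cartilage genes, 0.34 for 8 nerve and Schwann cell genes and −0.57 for 8 erythrocyte entries. It was −0.02 for 5 endothelial genes and 0.04 for 3 macrophage genes. Repeated symbols are among the erythrocyte entries, so these may not be 8 distinct genes. The part of these markers in the ligase values was not tested.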

How the data were processed

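The authors deposited TPM values, 1 library per wing, in a table of 24356 rows with chicken Ensembl identifiers. Build GRCg6a, StringTie 2.1.7 and HISAT2 2.2.1 are listed in the submitters' processing notes; settings, annotation release and strand use were not given in the sources used here. A count table with 2 columns was not used, as its column names match neither sample. The depth of the libraries is therefore unknown, and no interval is given. TPM is scaled within a library, so abundant genes that rise push down the values of the rest.

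Rows of short RNAs (1309) were left out. Genes entered the comparison with values above 0 in both wings and a mean of 1 TPM or more. The log2 ratio is the difference in log2(TPM + 0.1), injected minus uninjected, which understates changes of low genes, and a call means a ratio beyond 1.5-fold. The calling rule was run on simulated data with equal noise at all levels and planted changes larger than 1.5-fold. Such data cannot show how reliable a call is for genes of low level. The members, lists and tests were chosen with earlier results of these data known. Genes were named if they were cullin, RING or elongin genes, the 2 most abundant members of each receptor family, the members at the 1 TPM limit, called genes, or the most abundant gene of each further list; the others were named after their values were seen. Some members are counted but not reported by name here. Reads of close paralogues may be shared between them. Python 3.11.15, pandas 2.3.3, NumPy 2.4.6 and matplotlib 3.10.9 were used.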

Additional observations from a re-analysis of the deposited data

How the results depend on the processing

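The counts of ligase genes beyond 1.5-fold, 0 higher and 0 lower, were the same under 3 other scalings (trimmed mean, upper quartile, and median of ratios). They were also the same with a pseudocount of 0.01 TPM and with removal of the drift of the ratio with abundance. Of all genes compared, 6.92%, 6.93%, 6.93%, 7.45% and 6.84% were called under these settings, in that order. A pseudocount of 1 TPM, a minimum mean of 5 TPM and a 2-fold rule gave 0 and 0 too, where 4.43%, 3.6% and 1.99% of all genes were called. These last settings could only return 0. They shrink the ratios, keep a subset of the genes or raise the limit, and no ligase gene had passed 1.5-fold as reported. Without a minimum mean, 107 genes were compared and 2 were higher (ASB15 and ASB18) and 2 lower (ASB14 and KLHL38), all with a mean under 1 TPM, where 39.7% of all genes were beyond 1.5-fold. With a 1.2-fold rule, added after the data were examined, 5 of the 98 were higher and 8 lower, against 8.83% and 16.8% of all genes. The median of the ligase genes lay between −0.06 and −0.01. Of the 106 other pathway genes, 1 was higher (NEDD8) under each of the 3 scalings and with that drift removed. Under these settings 6.84% to 6.93% of all genes were called in either direction. Without a minimum mean 2 were lower (KBTBD12 and KBTBD3), both with a mean under 1 TPM, the range of the 39.7% above. At 1.2-fold, 6 of the 106 were higher and 10 lower, against 8.83% and 16.8% of all genes. Only 32 of the 98 ligase genes were followed gene by gene. The sign of the log2 ratio changed for 5 of these 32, CUL1, CUL4A, SPSB1, FBXW5 and FBXW11, none of them called. Over all 98, 38 lay above 0 as reported and 48 under trimmed-mean scaling, so signs near 0 changed among the other members too. No paired analysis was possible because each group held 1 library. Depth is unknown, so how much of a ratio near 0 is counting error was not detectable from these values, and genes under 5 TPM carry the widest ratios.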
